A study of Mus musculus with 6 samples.

Results

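Hox genes encode homeodomain transcription factors that set position along the body axis, and they lie in 4 clusters, Hoxa to Hoxd, in which genes of the same number are paralogs. Blood stem cells use them too: genes of the Hoxa and Hoxb clusters are known to be active in hematopoietic stem cells (HSCs) and to be switched down as cells differentiate, together with cofactors of the TALE class such as Meis1. Trithorax (MLL) complexes are known to keep Hox loci active and Polycomb complexes to silence them. The genes described here are those whose probe accession maps to a symbol of Hoxa, Hoxb, Hoxc or Hoxd followed by a number, without antisense or host transcripts: 38 genes with 42 probes, of 36799 genes and unnamed transcripts with 55681 probes on the array.

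The samples were bone marrow HSCs of mice, the genotype being Cdk6-/- (the allele and how it was made are not given in the sources used here) or wild type, and the treatment none or polyI:C, a mimic of viral double-stranded RNA that triggers the interferon response. Each of 6 two-colour arrays set 1 Cdk6-/- sample in Cy5 against a wild-type pool of sorted HSCs of the same treatment in Cy3, with 3 untreated arrays (untreated 1 to 3) and 3 polyI:C arrays (polyI:C 1 to 3). Each pool was hybridised 3 times and is 1 control sample, so the spread of its values is technical. The p-values of the genotype ratios therefore leave out any spread between wild-type samples. No dye was swapped, so a dye bias of a probe cannot be told apart from a genotype difference. The dose and time of polyI:C, the age of the mice and the number of mice in a sample or pool are also not given in the sources used here. As the samples are bulk RNA, fewer cells of a type and less RNA per cell cannot be told apart.

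A log2 ratio below is Cdk6-/- over the wild-type pool, and a level is a normalised log2 intensity in 1 channel; levels are compared only within a probe. The arrays differed in sensitivity: 47 to 55.7% of spots were well above background (the scanner's flag) in Cy5 on 5 arrays and 76.5% on polyI:C 3. Cdk6 had 1 probe, whose place relative to the deletion is not known, so it checks nothing; its untreated ratios of 0.40, -0.41 and 0.24 came from arrays where neither channel was well above background, and those with polyI:C were -0.26, -0.44 and -1.28. Xist, the RNA that coats the inactive X, had ratios of -3.98 on untreated 3 and -3.42 on polyI:C 3 and between 0.42 and 1.87 on the other arrays, so arrays 3 of both treatments stood apart in this gene. Over all genes the ratios of polyI:C 3 correlated with those of polyI:C 1 and 2 at 0.13 and 0.22, against 0.56 between those 2 arrays. Untreated 3 did not stand apart in this way: it correlated with untreated 1 and 2 at 0.542 and 0.492, against 0.485 between those 2. All 13 markers of HSCs and multipotent progenitors that were listed were measured. Of these, 2, Cd48 and Tek, were lower in untreated Cdk6-/- samples (log2 ratio -0.86 and -0.75, limma adjusted p = 0.0433 and 0.0488). Limma called 9.93% of all genes lower and 3.05% higher in that comparison.

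Promoters of 3 paralogs of group 4 are printed here. Hoxb4 was well above background in every reading, Hoxc4 in 5 of 12 and Hoxd4 in none (a reading is 1 channel of 1 array). Hoxa4, the other paralog of the group, was so in 10 of 12. Its promoter is not printed, so the 3 stretches are not the whole group. The stretches are the 250 bases before each gene's start on the plus strand in RefSeq, build GRCm38.p6, 5′ to 3′. Capitals mark the core that CDX proteins bind, TTTATG, and the TATA box, which lies here on the other strand.
Hoxb4, chr11:96318017-96318266: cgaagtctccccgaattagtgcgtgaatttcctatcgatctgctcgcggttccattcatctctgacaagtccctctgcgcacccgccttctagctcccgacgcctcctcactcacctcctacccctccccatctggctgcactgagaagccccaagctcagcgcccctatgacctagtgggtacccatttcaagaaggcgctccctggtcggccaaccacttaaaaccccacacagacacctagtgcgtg
Hoxc4, chr15:103034145-103034394: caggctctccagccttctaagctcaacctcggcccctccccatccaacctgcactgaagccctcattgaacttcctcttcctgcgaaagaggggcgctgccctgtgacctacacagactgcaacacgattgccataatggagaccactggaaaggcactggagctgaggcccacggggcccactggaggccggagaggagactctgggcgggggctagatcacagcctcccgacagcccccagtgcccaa
Hoxd4, chr2:74721728-74721977: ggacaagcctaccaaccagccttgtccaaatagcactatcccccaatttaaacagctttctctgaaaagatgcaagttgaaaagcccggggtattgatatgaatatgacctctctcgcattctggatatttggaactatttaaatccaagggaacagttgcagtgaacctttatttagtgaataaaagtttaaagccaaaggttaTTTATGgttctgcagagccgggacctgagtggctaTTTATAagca
The Hoxb4 stretch held 14 CG pairs, that of Hoxc4 8 and that of Hoxd4 3, against a median of 6 in all 32851 promoters. The TATA box, searched as TATAAA on both strands, was in 12.4% of all promoters of this length and TTTATG, on either strand, in 10.8%; of the 3 stretches, that of Hoxd4 held both and those of Hoxb4 and Hoxc4 neither. The homeodomain core TAATTA (4.84% of all promoters) and the AP-1 site TGANTCA (6.75%), read on both strands, were in none of the 3. RefSeq promoters were found for 22 of the 38 genes. Such matches describe letters only.

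Detection followed the clusters. Of 10 Hoxa genes, 9 entered the tests because at least 1 channel was well above background throughout a group, and 7 were so in all 12 readings: Hoxa3, Hoxa5, Hoxa6, Hoxa7, Hoxa9, Hoxa10 and Hoxa13. Of 10 Hoxb genes, 5 were tested and 4 (Hoxb2, Hoxb3, Hoxb4 and Hoxb5) were measured in all 12 readings. Of 9 Hoxc genes only Hoxc4 and Hoxc6 were tested, and of 9 Hoxd genes none was. Across the clusters 16 of 38 genes were tested, 11 were measured in every reading and 10 in none (Hoxa11, Hoxb1, Hoxb13, Hoxc8, Hoxc11, Hoxc13, Hoxd3, Hoxd4, Hoxd8 and Hoxd12). On the whole array 22630 of 36799 genes were tested and 16393 were measured in every reading. Hoxa13 counts as measured throughout by 1 of its 2 probes.

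**Figure D1:**
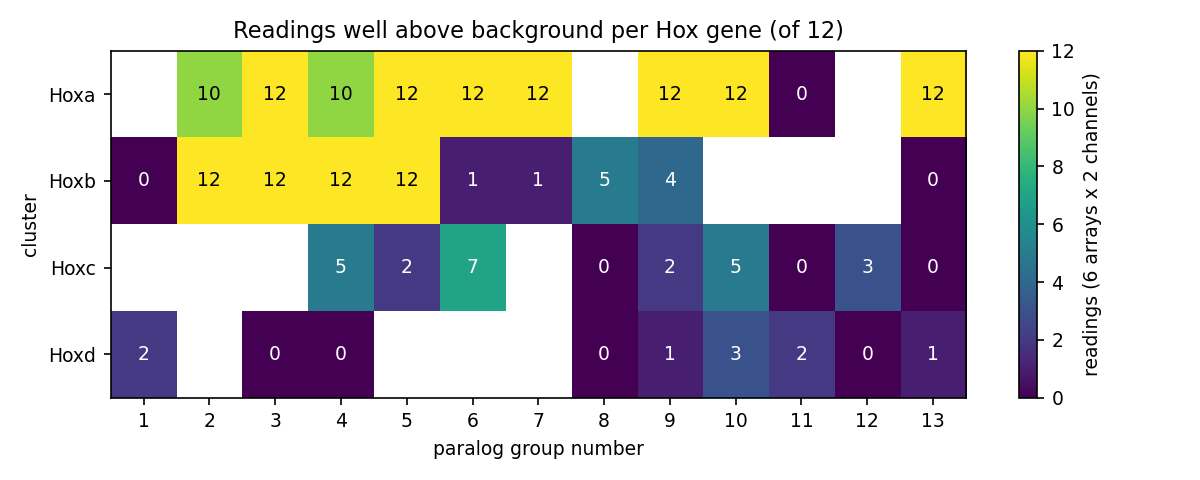
Number of the 12 readings (6 arrays, 2 channels) in which any probe of each Hox gene was well above background, by cluster (rows) and paralog group (columns). A position with no colour has no gene described here. Genes well above background in 10 or more readings lie in paralog groups 2 to 7, 9, 10 and 13 of Hoxa and groups 2 to 5 of Hoxb, and no Hoxd gene passes 3 readings.

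The remaining Hoxc and Hoxd readings leaned on 1 array. Hoxc5, Hoxc9, Hoxd11 and Hoxd13 were well above background on polyI:C 3 alone, and the count of genes measured at least once was 28 with that array and 24 without it. By array, 14 to 17 of the 38 genes were well above background in either channel on the other 5 arrays, against 23 in Cy5 and 21 in Cy3 on polyI:C 3, which was also the array with the most spots above background. The part of that sensitivity in the extra Hox readings was not tested. Hoxa9, Hoxa13, Hoxb3 and Hoxd11 had 2 probes each, and RefSeq gene models overlap for Hoxa3 with Hoxa4, Hoxa5 and Hoxa6, for Hoxb3 with Hoxb4, for Hoxd3 with Hoxd4 and for Hoxd10 with Hoxd11, so a probe of these genes could read more than 1 transcript; probe sequences were not used here.

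In untreated cells 1 of the 16 tested Hox genes differed by genotype: Hoxc4, which in B cells is known to activate the gene of the antibody-diversifying enzyme AID, was higher in Cdk6-/- samples. Its log2 ratio was 1.48, 1.67 and 1.26 on untreated 1, 2 and 3 (mean 1.47, SE 0.23, n = 3, limma adjusted p = 0.00435). The 3 Cdk6-/- levels were 8.64, 8.83 and 8.28, all well above background. The pool read 7.16, 7.17 and 7.02, none well above background, so the difference is a bound: mean Hoxc4 signal was at least 2.76-fold higher in Cdk6-/- samples, which lay above the pool on every untreated array. The bound sets the Cdk6-/- mean against the mean of the pool's own signals or, where higher, of the lowest signal well above background on that array. It leaves out the spread between samples, and in other settings the mean log2 ratio ran from 1.373 to 2.762. Hoxc4 was 1 of 16 Hox genes called, where 13% of all 22630 genes were called in either direction, 3.05% being called higher and 9.93% lower. It entered the test only through the channel in which it was high; with no filter on dim probes its adjusted p was 0.0115. The call held in 14 of 14 other settings, among them the fit without both arrays 3 (1.57, limma adjusted p = 0.029). Settings with no filter, other probe rules or 1 polyI:C array left out kept the mean at 1.47 and could move only its SE and p-value.

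After polyI:C the Hoxc4 ratio was 0.55, -0.20 and -0.74 (mean -0.13, limma adjusted p = 0.853), on both sides of 0. The Cdk6-/- levels were 7.49, 7.45 and 6.39, none well above background, and the pool levels were 6.94, 7.65 and 7.14, above background on polyI:C 2 and 3. The ratio was thus lower after polyI:C than without it by 1.60 log2 units (polyI:C minus untreated -1.60, SE 0.33, limma adjusted p = 0.0437), with no overlap of the 3 against 3 arrays, as for 8.48% of all genes. Hoxc4 was the 1 Hox gene of 16 called for this difference, where 1.79% of all genes were called, 1.6% higher and 0.199% lower. Hoxc4 passed the filter on dim probes only through the untreated Cdk6-/- samples, the group in which it was high. With no such filter the difference was not called (limma adjusted p = 0.0772). The call of the difference was lost in 10 of 15 other settings. Leaving out untreated 1, 2 or 3 or polyI:C 2 or 3 gave differences from -1.71 to -1.30 with adjusted p from 0.0878 to 0.133, and slide as a fixed block gave -1.27 (limma adjusted p = 0.146). Within the slide shared by untreated 1 and 3 and polyI:C 1 the difference was -0.82, and within that shared by untreated 2 and polyI:C 2 it was -1.86. In Cdk6-/- samples alone the mean level was 8.59 untreated and 7.11 after polyI:C, a measured 2.78-fold difference of means with the treated level not well above background. This difference did not pass the test (limma adjusted p = 0.208), and in other settings it ran from -2.49 to -1.12 log2 units.

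**Figure D2:**
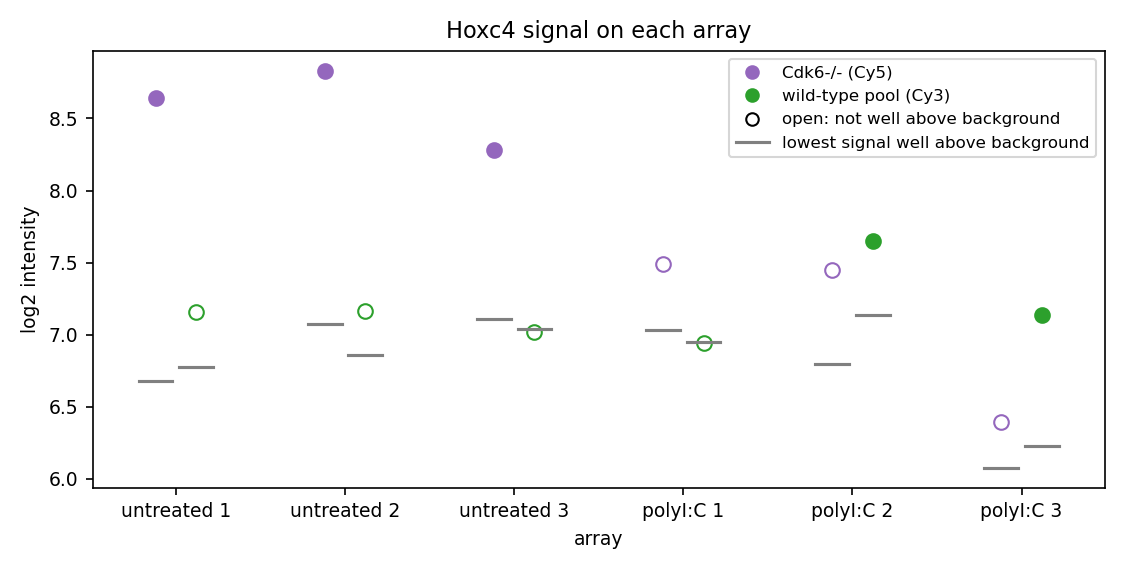
Normalised log2 intensity of Hoxc4 on each array in the Cdk6-/- sample (Cy5) and the wild-type pool (Cy3); open symbols were not well above background and grey bars give the lowest signal that was so on that array and channel. The 3 untreated Cdk6-/- values, 8.28 to 8.83, lie above all other values, which run from 6.39 to 7.65.

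Markers of other cells moved with the genotype in the same untreated arrays. Of 9 B cell markers measured, 7 were lower in Cdk6-/- samples (median log2 ratio -1.59), as were 7 of 10 stromal and endothelial markers (median -1.18), 3 of 4 mast cell and basophil markers (median -1.29) and 4 of 12 granulocyte markers (median -0.79). Of 10 erythroid and 10 monocyte and macrophage markers 3 and 2 were lower, and of 8 megakaryocyte markers 3 were lower and 1 higher. Among 10 T and NK cell markers limma called 0 (4 had an unadjusted p under 0.05, as had 28.5% of all genes). These counts stand beside 9.93% of all genes called lower and 3.05% called higher. The summed signal of the B cell markers was 12.70 to 13.62 in log2 in untreated Cdk6-/- samples and 14.73 to 14.87 in the pool; after polyI:C it was 11.97 to 12.39 and 12.20 to 12.36. That of the stromal and endothelial markers was 12.70 to 13.08 in untreated Cdk6-/- samples and 13.99 to 14.13 in the pool, while Lum, Pdgfra and Cdh5 of that list did not pass the filter on dim probes. Their part in the Hoxc4 result was not tested.

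The 15 other tested Hox genes did not pass the test for genotype in untreated cells; the smallest limma adjusted p among them was 0.161, for Hoxa7, and 2 of the 16 genes, Hoxc4 and Hoxa7, had an unadjusted p under 0.05 (28.5% of all genes did). After polyI:C none of 16 was called by limma, where 0.968% of all genes were (0.318% higher and 0.65% lower), and Hoxa2 and Hoxa7 had an unadjusted p under 0.05 (13.4% of all genes did). The median log2 ratio of the 16 genes was 0.10 untreated and 0.24 after polyI:C, against -0.05 and -0.02 over all genes. Untreated, 3 genes (Hoxa7, Hoxa13 and Hoxc4) were above 0 on all 3 arrays, 2 (Hoxa2 and Hoxb3) were below 0 on all 3 and 11 had both signs. The means outside Hoxc4 ran from -0.39 to 0.40.

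**Figure D3:**
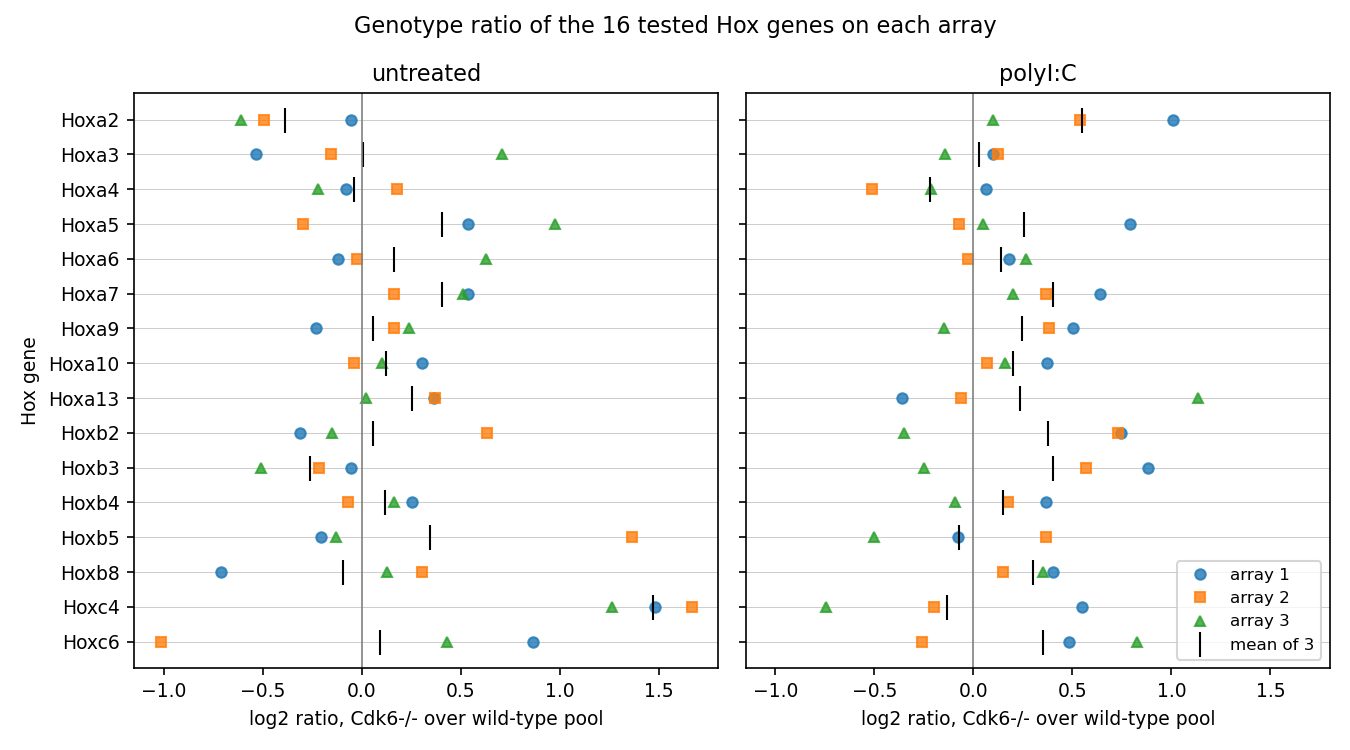
Log2 ratio of Cdk6-/- to the wild-type pool for the 16 tested Hox genes on each of the 3 untreated (left) and 3 polyI:C (right) arrays; bars are means of 3. Untreated Hoxc4 lies at 1.26 to 1.67 and Hoxb5 reaches 1.37 on untreated 2, and after polyI:C the genes lie between -0.74 and 1.14.

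The genes of the Hoxa cluster best known in blood stem cells, Hoxa7, Hoxa9 and Hoxa10, had ratios near 0 or above it. Hoxa9, which drives self-renewal of progenitors and, with Meis1, leukemia, had ratios of -0.23, 0.16 and 0.24 untreated (mean 0.06, SE 0.19, limma adjusted p = 0.875) and 0.50, 0.38 and -0.15 after polyI:C. Its second probe gave means of -0.15 and 0.32 in place of 0.06 and 0.25, within the spread of the arrays. Levels of Hoxa9 in Cdk6-/- samples were 11.13, 11.86 and 11.78 untreated and 11.33, 11.27 and 10.33 after polyI:C. In the pools they were 11.36, 11.69 and 11.54 and 10.82, 10.88 and 10.47, so the treated pool values lay below the untreated ones while the Cdk6-/- values overlapped. Hoxa7, often active together with Hoxa9 in MLL-driven leukemia, was the 1 tested gene with a ratio above 0 on all 6 arrays: 0.53, 0.17 and 0.51 untreated and 0.64, 0.37 and 0.20 after polyI:C, a mean of 0.40 in both (SE 0.18, limma adjusted p = 0.161 and 0.357). In Cdk6-/- samples it read 11.26, 11.06 and 11.25 untreated and 10.60, 10.82 and 9.46 after polyI:C, and in the pools 10.73, 10.89 and 10.74 and 9.96, 10.46 and 9.26. Neither channel overlapped between treatments. Hoxa10, which expands stem and myeloid progenitor cells when overexpressed, was the third of them. Its ratios were 0.31, -0.04 and 0.10 without and 0.37, 0.07 and 0.16 with polyI:C. Its Cdk6-/- levels were 9.74, 9.42 and 9.44 and 9.63, 9.74 and 9.68, and its pool levels 9.44, 9.46 and 9.34 and 9.26, 9.67 and 9.52. Treated and untreated values of Hoxa10 overlapped in both channels.

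Hoxa3, Hoxa5 and Hoxa6 had untreated ratios that spread more between arrays (SD 0.64, 0.65 and 0.41) than those of Hoxa7, Hoxa9 and Hoxa10 (SD 0.21, 0.25 and 0.17). The gene model of Hoxa3 overlaps those of Hoxa5 and Hoxa6, and also that of Hoxa4, whose untreated ratios had an SD of 0.20. Hoxa3, needed to form the thymus, had ratios of -0.53, -0.16 and 0.71 untreated and 0.10, 0.12 and -0.14 after polyI:C; its Cdk6-/- levels were 8.84, 8.31 and 10.27 and 8.48, 8.89 and 7.41, and its pool levels 9.37, 8.46 and 9.56 and 8.39, 8.76 and 7.56. Untreated 3 was the highest array in Cy5. Hoxa5, which bears on the choice between myeloid and erythroid fate, read 0.54, -0.30 and 0.98 and 0.79, -0.07 and 0.05 as ratios, with Cdk6-/- levels of 9.62, 8.86 and 10.20 and 9.45, 8.99 and 8.21 and pool levels of 9.08, 9.16 and 9.22 and 8.66, 9.06 and 8.17. The untreated ratios of Hoxa5 were 0.40 ± 0.65 (SD, n = 3), on both sides of 0. Hoxa6, a promoter of progenitor growth, had ratios of -0.12, -0.02 and 0.63 and 0.18, -0.03 and 0.26, Cdk6-/- levels of 8.57, 9.62 and 9.41 and 8.06, 8.21 and 8.86 and pool levels of 8.69, 9.64 and 8.78 and 7.88, 8.24 and 8.59. In Hoxa3, Hoxa5 and Hoxa6 the highest untreated ratio was that of untreated 3. Hoxa13, known from limb and genital development, had ratios of 0.36, 0.37 and 0.02 untreated and -0.36, -0.06 and 1.14 after polyI:C. Its Cdk6-/- levels were 10.55, 10.20 and 10.27 and 9.49, 9.48 and 11.99 and its pool levels 10.18, 9.83 and 10.25 and 9.85, 9.54 and 10.86, with polyI:C 3 the highest in both channels. The probes of this gene disagreed: the second was well above background on polyI:C 3 only.

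Among Hoxb genes, Hoxb4, which expands HSCs when overexpressed, had ratios of 0.25, -0.07 and 0.16 untreated and 0.37, 0.18 and -0.09 after polyI:C (means 0.11 and 0.15, limma adjusted p = 0.709 and 0.761). Its levels were 10.44, 9.96 and 10.41 and 9.93, 9.62 and 8.97 in Cdk6-/- samples and 10.19, 10.03 and 10.25 and 9.56, 9.44 and 9.06 in the pools. All treated values of Hoxb4 lay below all untreated ones in both channels. Hoxb3, its neighbour, had ratios of -0.06, -0.22 and -0.51 and 0.88, 0.57 and -0.25, Cdk6-/- levels of 9.89, 9.99 and 9.26 and 9.29, 9.43 and 8.34 and pool levels of 9.95, 10.20 and 9.77 and 8.41, 8.87 and 8.59. A second Hoxb3 probe had the opposite sign untreated (mean 0.27 against -0.26), so the direction of Hoxb3 depends on the probe. Hoxb2, known for its role in the hindbrain, read -0.31, 0.63 and -0.15 and 0.75, 0.73 and -0.35 as ratios, 8.80, 9.99 and 8.91 and 9.74, 9.55 and 7.72 in Cdk6-/- samples and 9.12, 9.35 and 9.06 and 8.99, 8.82 and 8.07 in the pools. Its polyI:C ratios were above 0 on polyI:C 1 and 2 and below on polyI:C 3. Hoxb5, known as a marker of long-term HSCs in mice, had ratios of -0.20, 1.37 and -0.13 untreated and -0.08, 0.37 and -0.50 after polyI:C. Its Cdk6-/- levels were 7.85, 9.74 and 7.80 and 8.98, 9.64 and 9.22 and its pool levels 8.05, 8.37 and 7.93 and 9.06, 9.27 and 9.72. Untreated 2 stood apart in the ratio and in Cy5; without it the other untreated Cdk6-/- samples lay below all treated ones.

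The other tested genes were not measured in every reading. Hoxa2, a gene of the pharyngeal arches, had ratios below 0 on every untreated array (-0.05, -0.49 and -0.61) and above 0 on every polyI:C array (1.01, 0.54 and 0.10); the difference of 0.93 (SE 0.30) did not pass the test (limma adjusted p = 0.144). Of all genes, 14.3% had polyI:C ratios that lay wholly above the untreated ones. Hoxa4 had mean ratios of -0.04 and -0.22, Hoxb8, which can immortalise myeloid progenitors, -0.09 and 0.30, and Hoxc6 0.09 and 0.35, the last with untreated values of 0.86, -1.01 and 0.43. Of the 22 genes not tested, Hoxc10 was measured in 5 of 12 readings, with untreated ratios of 0.67, 0.82 and 0.69 and polyI:C ratios of -0.13, 0.01 and 0.15. On untreated 2 and 3 neither channel of Hoxc10 was well above background. With no filter on dim probes it was called untreated (mean 0.73, SE 0.12, limma adjusted p = 0.0142). Hoxb9 and Hoxd10, chosen for the highest intensity among the untested Hoxb and Hoxd genes, had mean untreated ratios of 0.10 and 0.16.

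Hox levels in Cdk6-/- samples were mostly lower after polyI:C, but none passed the test. After polyI:C the mean Cdk6-/- level was lower in 13 of the 16 tested genes, against 47.1% of all genes, with a median change of -0.68 log2 units against 0.04 over all genes. No Hox gene was called by limma (0.168% of all genes were called, 0.11% higher and 0.0574% lower; 1 Hox gene, Hoxc4, had an unadjusted p under 0.05, as had 10.3% of all genes; smallest limma adjusted p = 0.208). All 3 treated Cdk6-/- values lay below all 3 untreated values for Hoxa7, Hoxb4 and Hoxc4, 3 of 16 genes, where 7.69% of all genes did so, and no Hox gene lay above (9.26% of all genes did). Hoxc4 entered the tests only through the untreated Cdk6-/- samples, where it was high. The filter on dim probes thus favoured a lower treated value for it, in these counts and in those without polyI:C 3. Without polyI:C 3, where the median level of the 16 genes was lowest in both channels, 12 genes were lower, the median change was -0.47, and 5 genes did not overlap downwards (19.3% of all genes), Hoxa6 and Hoxa13 being added, while Hoxa2 lay wholly above (19.2% of all genes did). The median change was -0.41 with slide as a fixed block, -0.44 without both arrays 3 and -0.12 over all 38 genes with no filter on dim probes.

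In the wild-type pools, values of 1 sample per treatment read 3 times, 13 of 16 genes had a lower mean after polyI:C, with a median change of -0.75 log2 units against a median near 0 over all genes, and 11 did not overlap downwards (23.1% of all genes). Without polyI:C 3 the same 11 genes did not overlap, against 29.8% of all genes. The pool difference, polyI:C minus untreated, was -1.35 log2 units for Hoxb3, -0.89 for Hoxa7, -0.80 for Hoxa9 and -0.80 for Hoxb4. The second Hoxb3 probe gave -0.52, with a pool level of 8.09 on polyI:C 1 above that of 7.88 on untreated 1. The size of the Hoxb3 difference and its lack of overlap thus depend on the probe. The treated pool was well above background on 1 of 3 arrays for Hoxc6, with a measured difference of -1.12, and on none for Hoxb8, which read at least 1.46-fold higher in the untreated pool. Hoxb8 and Hoxc6 are among the genes that did not overlap, but they entered the tests only through the untreated pool, where they were high. The filter on dim probes thus favoured a lower treated value for both. Hoxb5 had the higher mean after polyI:C in both channels, by 1.23 in the pools, with no overlap (19.4% of all genes), and by 0.82 in Cdk6-/- samples. The differences of Hoxa10 were 0.07 in the pools and 0.15 in Cdk6-/- samples, and those of Hoxa13 were -0.01 and -0.02. Among the 11 Hox genes measured in every reading, and so not admitted through 1 group alone, 9 were lower in each channel, with medians of -0.67 in Cdk6-/- samples and -0.80 in the pools; over the 16393 genes measured in every reading the medians were 0.02 and 0.01. Without polyI:C 3, 8 and 9 of the 11 were lower, with medians of -0.35 and -0.56. Of these 11, Hoxa5, Hoxa6, Hoxa7, Hoxa9, Hoxb2, Hoxb3 and Hoxb4 did not overlap downwards in the pools, with or without polyI:C 3.

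**Figure D4:**
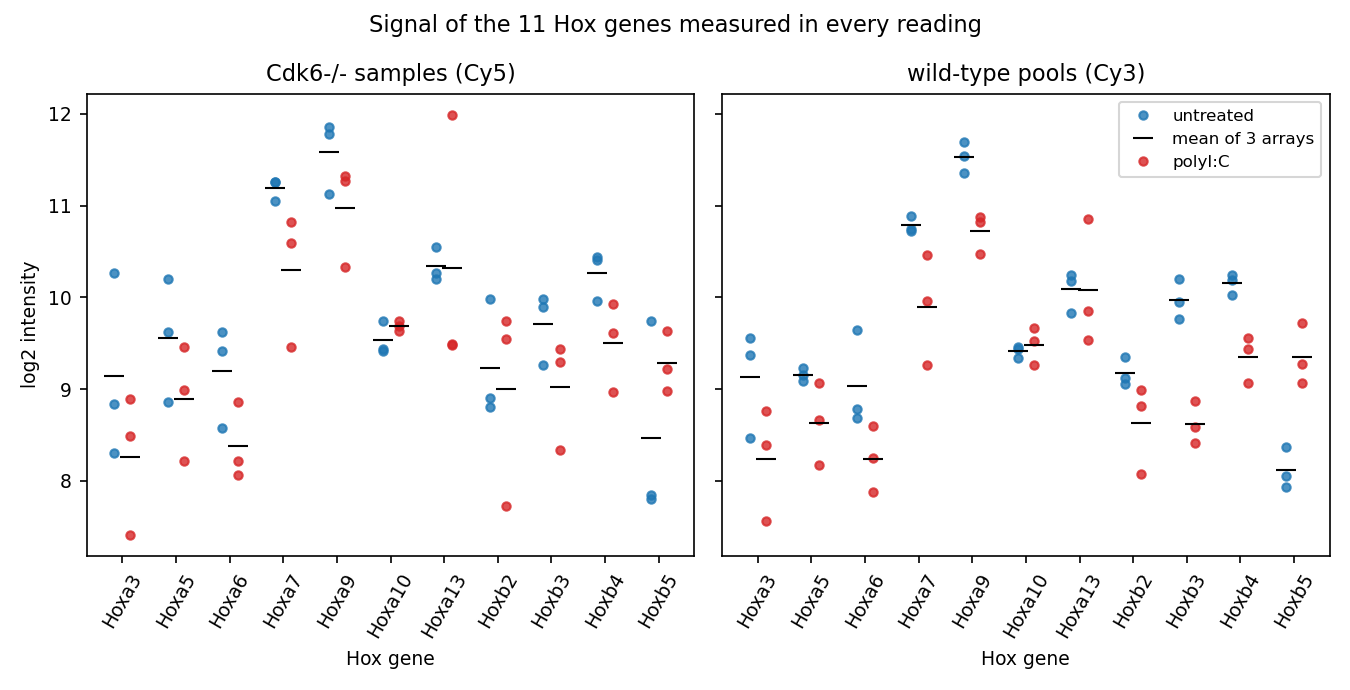
Normalised log2 intensity of the 11 Hox genes measured in every reading, untreated (blue) and after polyI:C (red), in the 3 Cdk6-/- samples per treatment (left) and the 3 hybridisations of each wild-type pool (right); bars are means. Treated values of Hoxa7 and Hoxb4 lie below the untreated ones in both panels, and those of Hoxb5 lie above in the pools.

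Marker genes of other cells also differed between treatments in the same arrays. In Cdk6-/- samples 2 of 8 megakaryocyte and 1 of 10 T and NK cell markers were called higher and 1 of 10 erythroid markers lower. Of all genes, 0.11% were called higher and 0.0574% lower. In Cdk6-/- samples the median change was 1.02 for megakaryocyte markers, 1.34 for T and NK cell markers, -1.22 for erythroid markers, -1.14 for B cell markers and -0.48 for HSC and multipotent progenitor markers. In the pools the medians were 0.89, 0.84, -0.38, -2.77 and -0.18 in the same order. The medians of granulocyte, stromal and endothelial, monocyte and macrophage, and mast cell and basophil markers were -1.91, -1.86, -1.39 and -0.88 in the pools and 0.04, -0.50, -0.18 and 0.87 in Cdk6-/- samples. HSC and progenitor markers moved both ways. Their changes ran from -2.48 (Procr) to 1.45 (Ly6a) in Cdk6-/- samples and from -2.56 to 1.33 for the same genes in the pools. In Cdk6-/- samples limma called 0 of the 13, and 7 had an unadjusted p under 0.05 (10.3% of all genes did). The summed HSC and progenitor signal ran from 15.51 to 16.07 in untreated Cdk6-/- samples and from 15.11 to 15.55 after polyI:C, and from 15.45 to 15.60 and 15.25 to 15.53 in the pools. That of megakaryocyte markers ran from 13.06 to 13.87 and from 15.18 to 15.49 in Cdk6-/- samples. Their part in the Hox levels was not tested.

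Cofactors and regulators of Hox genes were read from lists. Of 9 TALE cofactors, 7 were tested and none was called by limma in any of the 4 comparisons (at most 1 of 7 had an unadjusted p under 0.05 in a comparison); Meis1, the partner of Hoxa9, had a mean ratio of 0.20 untreated (limma adjusted p = 0.536) and a ratio near 0 after polyI:C (0.998). Cdx1, Cdx2 and Cdx4, which activate Hox genes in the embryo, and the ParaHox genes Gsx1, Gsx2 and Pdx1 did not pass the filter on dim probes. Of 16 genes of MLL complexes and activators 15 were tested (Kmt2a was not matched), and 3 of 15 were higher in untreated Cdk6-/- samples, where 3.05% of all genes were: Mllt3 (log2 ratio 0.75, limma adjusted p = 0.0192), known to maintain HSCs, Dpy30 (0.67, limma adjusted p = 0.0391), a subunit of all such complexes, and Dot1l (0.58, limma adjusted p = 0.0485), which methylates histone H3. Each of these calls was lost without any 1 of the untreated arrays, and those of Dpy30 and Dot1l also without polyI:C 1 or 2 (adjusted p up to 0.101, 0.162 and 0.225 for the 3 genes). None was called after polyI:C. Of 20 Polycomb genes 19 were tested and none was called by limma in any comparison (1 to 3 of 19 had an unadjusted p under 0.05); Ezh2, which writes the silencing mark, had mean ratios of -0.11 and -0.42.

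Of 9 genes reported as targets of Hoxa9 and Meis1, all tested, limma called 1 higher and 1 lower in untreated Cdk6-/- samples. Of all genes, 3.05% were called higher and 9.93% lower. Bcl2, which protects cells from death, was the higher one (log2 ratio 0.69, limma adjusted p = 0.0266). Its call was lost without any 1 of the untreated arrays or without polyI:C 2 (adjusted p up to 0.126). Id2, an inhibitor of bHLH factors, was lower (-0.79, limma adjusted p = 0.0226) and its ratio was higher after polyI:C than before (difference 1.56, limma adjusted p = 0.0216). For the difference 1.6% of all genes were called higher. Without untreated 1 or 3 both calls of Id2 were lost, and the second also without polyI:C 1, 2 or 3 (adjusted p up to 0.129 and 0.0896). Lmo2, Myb, Pim1 and Erg, taken by mean intensity, had mean untreated ratios of 0.50, -0.11, -0.38 and -0.19, none past the threshold.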

How the data were processed

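Total RNA of HSCs was amplified and labelled with platinum dyes, per the labels' protocols. Per the file headers, Agilent Feature Extraction 11.5.1.1 read the two-colour arrays, annotated on mm9. The deposited scanner files hold median spot and background intensity, processed signals (intensity), a log10 ratio used here only to check direction and flags (other). The deposited value table, in log2, equals log2 of processed Cy5 over processed Cy3 to within 2.52e-06. 

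In limma 3.58.1 (R 4.3.3, statmod 1.5.0), medians were corrected with normexp (offset 50), ratios normalised by loess within arrays and average intensities by quantiles between arrays. Controls were dropped, as were spots that the scanner marked non-uniform or outlying (0.657%). Of 55681 probes, 31802 passed the rule of being well above background in a channel on all 3 arrays of a group, at 59305 spots an array; they gave 22630 genes, each by its brightest probe. Symbols came from RefSeq on GRCm38.p6 (22015 of 22323 accessions matched). 1 fit over 6 arrays, with 1 mean for either group (4 residual degrees of freedom) gave both genotype ratios and their difference, and a like fit of Cy5 levels the treatment comparison. Adjusted p-values are Benjamini-Hochberg over all genes, threshold 0.05; an exact permutation test of 3 against 3 cannot go below p = 0.1. Errors are SE of the fit, or SD where marked. The arrays' number and signal near background limit precision. Pools were compared as values only. The test pipeline was tested on simulated data.

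Array numbers follow accession order. The series calls the samples biological replicates; the mice behind each are not given in the sources used here, and p-values measure the spread between these samples. The Hox genes and the lists were chosen with earlier results of these data known, and no set test or p over a list is given. Values in full are given for Hox genes past the threshold or measured in all readings, and for list genes past the threshold with up to 4 of the brightest others. Of 39 genes matching the symbol rule, 1 is not reported here. Alternatives were other background correction and centring, no filter, other probe rules, slide as a block and arrays left out.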

Additional observations from a re-analysis of the deposited data

Results flagged for a closer look

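The genotype ratio of Hoxc4 differed between treatments: the polyI:C mean minus the untreated mean was -1.60 log2 units (limma adjusted p = 0.0437; lower on 3 of 3 polyI:C arrays than on any untreated array). That of Id2, a reported target of Hoxa9 and Meis1, differed the other way, by 1.56 (limma adjusted p = 0.0216). Both calls were lost when single arrays were left out. Hoxc4 passed the filter on dim probes only through the untreated Cdk6-/- samples, and its call was also lost with no such filter (limma adjusted p = 0.0772).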

How the results depend on the processing

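Array number and dim signal limit these results; probes near background hold only bounds. The untreated Hoxc4 call held in all 14 settings tried, and its lower ratio after polyI:C passed in 5 of 15. Of 928 values of Hox genes recomputed, 916 stayed on their side of the threshold (79 of these, none of them called, with the other sign), 10 lost a call (all Hoxc4) and 2 gained one. No paired analysis was possible because the array numbers follow accession order only and pair no samples; slide was fitted as a block.

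The count of Hox genes called untreated was 3 with median centring (Hoxc4, Hoxa7 at 0.82 and Hoxa5 at 0.75, where the median of all genes moved to 0.30) and 2 with no filter (Hoxc10 added). For the difference, limma called 0 Hox genes in place of 1 with processed signals, no filter, slide as a fixed block, the deposited value table or without both arrays 3, and 0 to 1 with single arrays left out (unadjusted p under 0.05 in the main setting: 2). Of all genes, 2939, 219, 406 and 38 were called untreated, after polyI:C, for the difference and for treatment in Cy5. Processed signals gave 33, 189 and 17 for the last 3, and no filter 94, 253 and 17. Median centring gave 6206 (4876 higher, 1330 lower, against 691 and 2248), 2583 (2345 and 238, against 72 and 147), 241 and 64. Slide as a fixed block gave 0 and 18 for the last 2, and as a random block 125 for Cy5. The value table gave 1948, 33 and 184 for the first 3. Without both arrays 3 limma called 1638, 0, 0 and 0; single arrays left out gave 1376 to 3426, 7 to 218, 6 to 378 and 0 to 23. Without polyI:C 3, chosen after seeing the data, 5 Hox genes did not overlap downwards in Cy5 in place of 3, and 24 in place of 28 were measured at least once. Both overlap counts include Hoxc4, which was admitted to the tests only through the untreated Cdk6-/- samples. Lmo2 after polyI:C reversed with median centring (0.81, limma adjusted p = 0.0322, against -0.12). The causes were not tested.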
